A study of Mus musculus with 2 samples.

Results

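The genes described here are the ATP-binding cassette (ABC) transporter genes and the solute carriers of organic ions in mouse liver. They were taken by symbol, as every gene named Abc with a letter from a to g and a digit, Slco, Slc10a, Slc22a, Slc47a or Slc51, and they numbered 97 of 22180 genes on the array. Liver RNA of male C57BL/6 mice aged 9 weeks was hybridised to 2 Affymetrix arrays, 1 holding the control and 1 the irradiated group. Irradiated mice had received a single whole-body gamma-ray dose of 6 Gy, at 0.81 Gy per minute, when they were 4 weeks old, and their livers were taken 5 weeks later. C57BL/6 is an inbred strain, and no transgene or other treatment is named for either group. The labels leave unsaid whether RNA was pooled over mice and whether the control was anaesthetised or sham-exposed as the irradiated mice were held in the chamber under anaesthesia. Each group being a single array, no replicate error and no test could be had, so that every difference below compares 2 arrays, and the number of arrays limits the precision.

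Hepatocytes are polarised cells. Their sinusoidal (basolateral) membrane faces the blood and takes up bile acids, bilirubin, hormones and drugs, chiefly through the sodium-bile acid cotransporter, the organic anion transporting polypeptides encoded by Slco genes and the organic ion carriers of the Slc22a family. The opposite, canalicular membrane exports bile acids, conjugates, phospholipid, sterols and cations into bile, mostly through ABC proteins that hydrolyse ATP, while a further set of basolateral exporters can return solutes to the blood. Nuclear receptors, among them the bile acid receptor FXR and the xenobiotic receptors PXR and CAR, are known to control many of these genes. Other family members work in intracellular membranes, in other cell types or, for the ABCE and ABCF proteins, at the ribosome.

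Values are log2 values made with RMA, which adjusts the background, brings the arrays to a common distribution and summarises the probes of each probe set. Differences are irradiated minus control on that log2 scale. The median of the whole deposited table, 6.06, served as an expression floor, and a gene that reached it on at least 1 array was called expressed. This floor is a rank and not a measured background. This held for 66 of the 97 transporter genes and for 13689 of all 22180 genes. Of the 66, 65 reached the floor on both arrays, and Abcg4, a brain-enriched sterol transporter gene, did so on the control array only. The central 95% of differences over all expressed genes lay between -0.37 and 0.42. The tissue label was checked on hepatocyte markers, of which 11 of 12 had a probe set. All 11 were expressed, with differences between -0.02 and 0.08 and a median of -0.00. In bulk tissue, fewer cells of a type and less RNA per cell cannot be told apart.

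Most transporter genes read nearly alike on the 2 arrays, and the few larger differences were mainly downward. Of the 66 expressed members, 3 were at least 1.5-fold lower on the irradiated array. They were Slc22a7, which encodes the organic anion transporter OAT2, Abcd2, a peroxisomal importer of very long chain fatty acyl-CoA, and Slco1a4, an organic anion transporting polypeptide of the sinusoidal membrane. These 3 made up 4.55% of the expressed members, against 0.65% of all expressed genes and 0.4% of expressed protein-coding genes that were as much lower. None of the 66 was 1.5-fold higher, where 1.14% of all expressed genes were, and none was 2-fold different, where 0.321% of all expressed genes were as much higher and 0.183% as much lower. At a smaller threshold of 0.32 log2 units, 5 members were lower (7.58%, against 3.75% of all expressed genes) and 3 were higher (4.55%, against 4.65%). The share of higher members at that threshold was therefore near the background. The median over the 66 was -0.03, against -0.00 over all expressed genes, with 37 members below 0 (56.1%, against 50.3%). The genes were chosen with earlier results of these arrays known, so that these shares describe them and support nothing further.

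**Figure D1:**
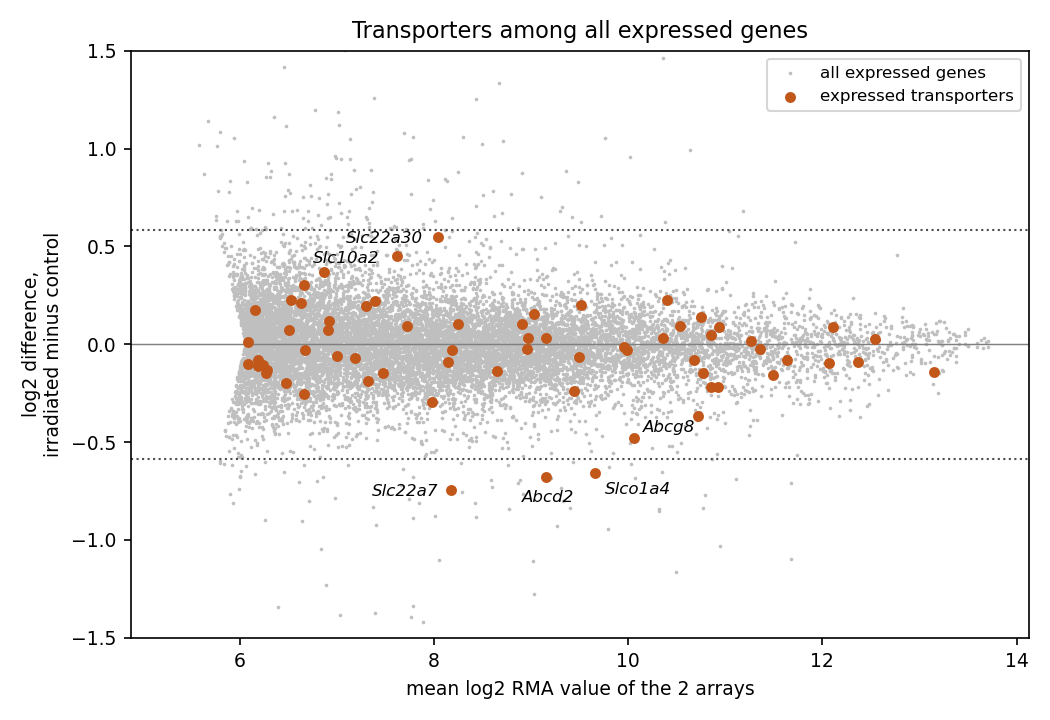
Mean of the 2 log2 RMA values (horizontal axis) against the log2 difference, irradiated minus control (vertical axis), for all 13689 expressed genes (grey) and the 66 expressed transporter genes (orange); dotted lines mark 1.5-fold, and 33 genes lie beyond the vertical limits of 1.5. Slc22a7, Abcd2 and Slco1a4 lie below the lower dotted line, Slc22a30 lies highest among the transporters, and no transporter lies above the upper line.

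The sinusoidal uptake carriers were described first. Slc22a7, whose product carries small organic anions, read 8.54 in the control and 7.80 in the irradiated sample. The irradiated value was 1.67-fold lower, a difference of -0.74, and 0.380% of all expressed genes had a difference as low. Among expressed genes whose mean value lay within 0.5 of that of Slc22a7, 0.481% did. Slco1a4, whose product carries bile acids, steroid conjugates and cardiac glycosides, read 9.98 and 9.32. Its irradiated value was 1.58-fold lower, a difference of -0.66, with 0.526% of all expressed genes as low. Both genes stood well above the floor on each array.

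The other 4 expressed uptake carriers differed far less. Slc10a1 encodes NTCP, the sodium-dependent carrier that brings most conjugated bile acids back from portal blood. Its control value was 13.22 and its irradiated value 13.08, a difference of -0.14. Slco1b2, the mouse counterpart of the human OATP1B carriers of bilirubin and statins, read 12.41 and 12.32, a difference of -0.09. Slco2b1, a carrier of sulfated steroids, read 10.85 and 10.70, a difference of -0.15. A second probe set annotated with Slco2b1 read 6.03 on both arrays, just under the floor. Slco1a1, a sinusoidal carrier known to be more abundant in males than in females, read 12.06 and 12.15 and was the only uptake carrier above 0, at 0.09. Of the 6 expressed uptake genes, 5 were below 0 and 2 of these at least 1.5-fold lower, and the median was -0.14. Over all expressed genes, 50.3% were below 0 and 0.65% at least 1.5-fold lower. These shares also stand beside the counts of the lists below, most of which hold few genes.

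Slco1a1 and Slco1a4 lie next to each other on the same strand of chromosome 6 and encode closely related proteins. They gave the widest gap between expressed neighbours among the transporters, 0.75, with Slco1a4 lower and Slco1a1 slightly higher. Their relatives Slco1a5 and Slco1a6, also next to each other, were below the floor on both arrays. Slco1a5 read 4.71 and 4.08, and Slco1a6 read 5.44 and 5.06. Probes of such related genes can cross-hybridise, and values below the floor may hold little signal of the gene. The 250 bases before each annotated start are shown for these 2 neighbouring genes, whose values went apart. A link of the sequences to the values was not tested. The sequences come from RefSeq on build GRCm38.p6, minus strand, at chr6:141946963-141947212 for Slco1a1 and chr6:141856221-141856470 for Slco1a4. Capitals mark each match, on either strand, to AGGTCA (the core letters that many nuclear receptors bind), TGTTTGC (a forkhead motif), GTTAAT (part of the HNF1 motif) or TATAAA (the TATA box).
Slco1a1: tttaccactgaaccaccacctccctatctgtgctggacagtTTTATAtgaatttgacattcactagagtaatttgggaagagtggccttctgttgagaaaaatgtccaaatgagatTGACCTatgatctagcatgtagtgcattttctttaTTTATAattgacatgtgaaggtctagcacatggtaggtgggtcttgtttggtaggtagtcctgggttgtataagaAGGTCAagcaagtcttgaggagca
Slco1a4: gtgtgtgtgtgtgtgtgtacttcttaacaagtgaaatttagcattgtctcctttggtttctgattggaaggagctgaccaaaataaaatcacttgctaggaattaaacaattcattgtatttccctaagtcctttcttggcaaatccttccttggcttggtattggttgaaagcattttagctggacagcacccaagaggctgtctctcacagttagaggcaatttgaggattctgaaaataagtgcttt
The Slco1a1 window held 2 matches to AGGTCA, from 24 to 19 and from 134 to 129 bases before the start, and 2 to TATAAA. The Slco1a4 window held no match to any of the 4. AGGTCA stood in 14% of all 32851 such windows in the table, TATAAA in 12.4%, GTTAAT in 6.43% and TGTTTGC in 4.3%. Among the 92 windows of the 79 transporter genes found in the table, the shares were 15.2%, 13%, 5.43% and 5.43%. These shares differ little from those of all windows, no overlap between matches occurred in the printed sequences, and a match is a string of letters only. Slc22a7 and Abcd2 had no entry in the table.

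The canalicular exporters included lower and higher members, with none past 1.5-fold. The lowest was Abcg8, with a control value of 10.30 and an irradiated value of 9.82. Its difference was -0.48, or 1.40-fold lower, with 1.13% of all expressed genes as low. Abcg5 encodes the other subunit of the same exporter, which secretes cholesterol and plant sterols into bile, and it read 11.04 and 10.82, a difference of -0.22. Both subunit genes were thus lower on the irradiated array, Abcg8 beyond and Abcg5 within the central range of all expressed genes. Slc47a1, whose product MATE1 exchanges organic cations for protons, read 10.90 and 10.54. Its difference was -0.37, or 1.29-fold lower, and 2.65% of all expressed genes were as low.

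Abcg5 and Abcg8 are transcribed away from each other, with 109 bases between their starts. The region between the starts is shown because both of these lower genes share it. It is RefSeq sequence of build GRCm38.p6, at chr17:84683012-84683120, printed on the plus strand, the strand of Abcg8, with the same 4 motifs in capitals.
Abcg5-Abcg8: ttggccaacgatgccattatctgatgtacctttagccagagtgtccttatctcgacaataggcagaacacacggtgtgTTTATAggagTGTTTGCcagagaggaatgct
It held 1 match to TGTTTGC, from 21 to 15 bases before the Abcg8 start, and 1 to TATAAA on the other strand, from 31 to 26 bases before it. The table gives Abcg8 a second start, whose window is not shown. A link of the shared region to the values of Abcg5 and Abcg8 was not tested.

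Abcb11 encodes BSEP, the bile salt export pump that drives bile flow, and it is a known target of FXR. Its control value was 11.57 and its irradiated value 11.41, a difference of -0.16. The 250 bases before its start (RefSeq, GRCm38.p6, minus strand, chr2:69342617-69342866) are shown because the gene is the main bile acid exporter in the comparison of uptake with export, with the same capitals.
Abcb11: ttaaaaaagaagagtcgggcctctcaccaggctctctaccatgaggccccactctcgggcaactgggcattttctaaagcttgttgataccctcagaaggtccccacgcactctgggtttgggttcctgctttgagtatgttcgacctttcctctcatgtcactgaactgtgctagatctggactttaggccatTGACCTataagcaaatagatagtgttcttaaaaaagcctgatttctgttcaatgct
The 1 match in it is to AGGTCA on the other strand, from 56 to 51 bases before the start.

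Abcc2, whose product MRP2 exports bilirubin glucuronides and other conjugates, read 12.53 and 12.55, a difference of 0.03. Abcb4, the gene of the phosphatidylcholine translocator MDR2, read 10.89 and 10.99, a difference of 0.09. Abcg2, an exporter of sulfate conjugates and drugs, read 9.53 and 9.47, a difference of -0.06. These 3 exporters stayed within 0.1 of equality. Abcb1a, a P-glycoprotein gene for drug efflux, read 7.28 and 7.50 and was the highest of the list at 0.22. Its close copy Abcb1b was below the floor on both arrays, at 4.56 and 4.61. Of the 8 expressed exporters of this membrane, 5 were below 0 (62.5%, against 50.3% of all expressed genes) and 3 above. The median was -0.11.

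Set side by side, uptake and canalicular export did not separate. The medians were -0.14 over 6 uptake genes and -0.11 over 8 exporters, a gap of -0.03 that is small beside the spread of either list. Uptake genes ran from -0.74 to 0.09 and exporters from -0.48 to 0.22. Slc22a7 and Slco1a4 were the 2 uptake genes below the lowest exporter, and the other 4 fell within the range of the exporters. By means in place of medians the gap was -0.16 (-0.28 for uptake and -0.12 for export), since the mean gives those 2 genes their full weight. The main bile acid carriers of the 2 membranes, Slc10a1 at -0.14 and Abcb11 at -0.16, had nearly the same difference. Among expressed genes of like level, 6.02% were as low as Slc10a1 and 12.7% as low as Abcb11. The gap of the medians ranged from -0.079 to 0.016 over the other settings tried. No test of the lists was possible with 1 array per group.

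The basolateral exporters read alike on both arrays. Abcc3 (MRP3), which returns glucuronides to the blood, read 11.26 and 11.28, a difference of 0.02. Abcc6, whose product is needed for ATP release from hepatocytes and whose loss causes ectopic calcification, read 10.002 and 9.975, a difference of -0.03. Abcc4 (MRP4), an exporter of bile acids and nucleotides, read 6.85 and 6.98, a difference of 0.12. Slc51a encodes 1 subunit of the bile acid exporter OST and was below the floor at 5.50 and 5.52. The gene of its partner subunit, Slc51b, shares its probe set with Rasl12, and that probe set was also below the floor, at 4.77 and 4.84. The median over the 3 expressed genes was 0.02, and none differed by 0.32 log2 units.

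**Figure D2:**
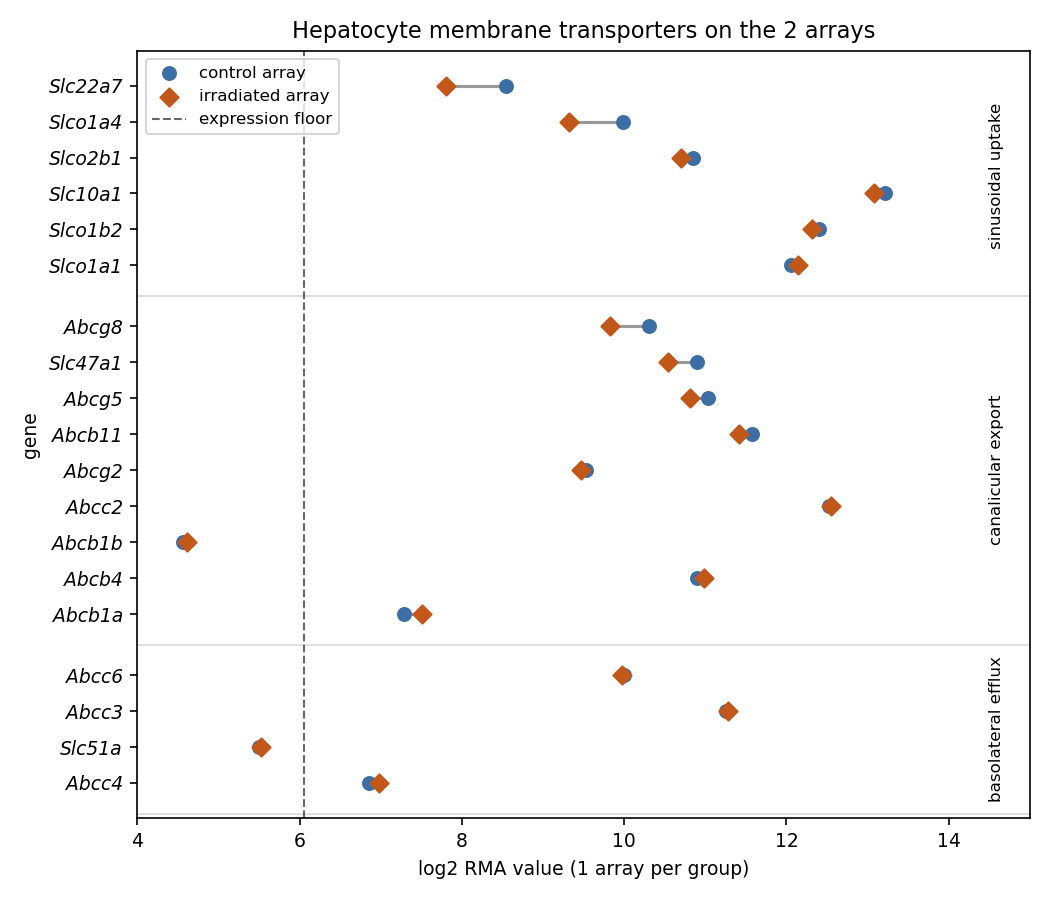
Log2 RMA value (horizontal axis) of each sinusoidal uptake, canalicular export and basolateral efflux gene on the control array (blue circle) and on the irradiated one (orange diamond), 1 array each; the dashed line is the expression floor of 6.06. The markers lie clearly apart for Slc22a7, Slco1a4, Abcg8 and Slc47a1, each lower on the irradiated array, and overlap or nearly overlap for most others.

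Among intracellular ABC transporters, 1 peroxisomal gene stood out. Abcd2 had a control value of 9.50 and an irradiated value of 8.82. Its difference was -0.68, more than 1.5-fold lower, and 0.497% of all expressed genes were as low. The gene is known to be more abundant in female than in male liver. The other peroxisomal transporter analysed, Abcd3, a carrier of bile acid precursors and branched acyl-CoA, read 12.12 and 12.02, a difference of -0.09. Abcd4, which moves cobalamin out of lysosomes, read 7.55 and 7.40, a difference of -0.15. All 3 were thus below 0, where 50.3% of all expressed genes were. Among the mitochondrial and other intracellular members of the ABCB family, 3 of 4 expressed genes were below 0, with a median of -0.11. The lowest was Abcb8, a part of a mitochondrial potassium channel, which read 8.12 and 7.83 (-0.30). The highest was Abcb10, a mitochondrial transporter needed for heme synthesis, which read 9.13 and 9.17 (0.03).

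The ABCE and ABCF proteins span no membrane. All 4 of their genes were above 0, where 50.3% of all expressed genes were below 0. The 4 ran from 0.03 to 0.20, with a median of 0.12, and none reached 0.32. Abcf2 was the highest, reading 9.41 in the control and 9.61 after irradiation, and Abcf3 the lowest, at 8.95 and 8.98. Abce1, which splits ribosomes after translation ends, read 10.68 and 10.82 (0.14).

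The lipid transporters of the ABCA and ABCG families move cholesterol and phospholipids. Without Abcg5 and Abcg8, given above as canalicular exporters, their list had a median of -0.06 over 11 expressed genes. Of these, 6 were below 0 and 5 above, with none at 0.32 or beyond. Abca3, the phospholipid transporter of lung surfactant granules, was the lowest, reading 9.56 and 9.33 (-0.24). Abca7 was the highest, reading 6.53 and 6.74 (0.21). Abca1, which loads cholesterol onto apolipoprotein A-I, read 10.83 and 10.88, a difference of 0.05. The remaining ABCC genes had a median of 0.14 over 6, 5 of them above 0, where 50.3% of all expressed genes were below 0. Abcc1, the gene of the general conjugate exporter MRP1, was the highest, reading 6.68 and 7.05 (0.37, or 1.29-fold), and 3.46% of all expressed genes were as high. The lowest was Abcc9, the sulfonylurea receptor subunit of potassium channels in smooth muscle and pericytes, which read 8.97 and 8.94 (-0.02). Smooth muscle and stellate cell markers beside it had a median of 0.29 over 10 expressed genes, 9 of them above 0. Their linear values summed to 12.79 on the control and 13.18 on the irradiated array as log2. The median hides a wide range, with 4 of the 10 at least 1.5-fold higher. The largest differences were those of Cnn1 (2.42) and Acta2 (1.97), and the smallest those of Reln (0.01) and Pdgfrb (-0.01). These markers thus did not differ as a set. Their part in the Abcc9 value was not tested.

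**Figure D3:**
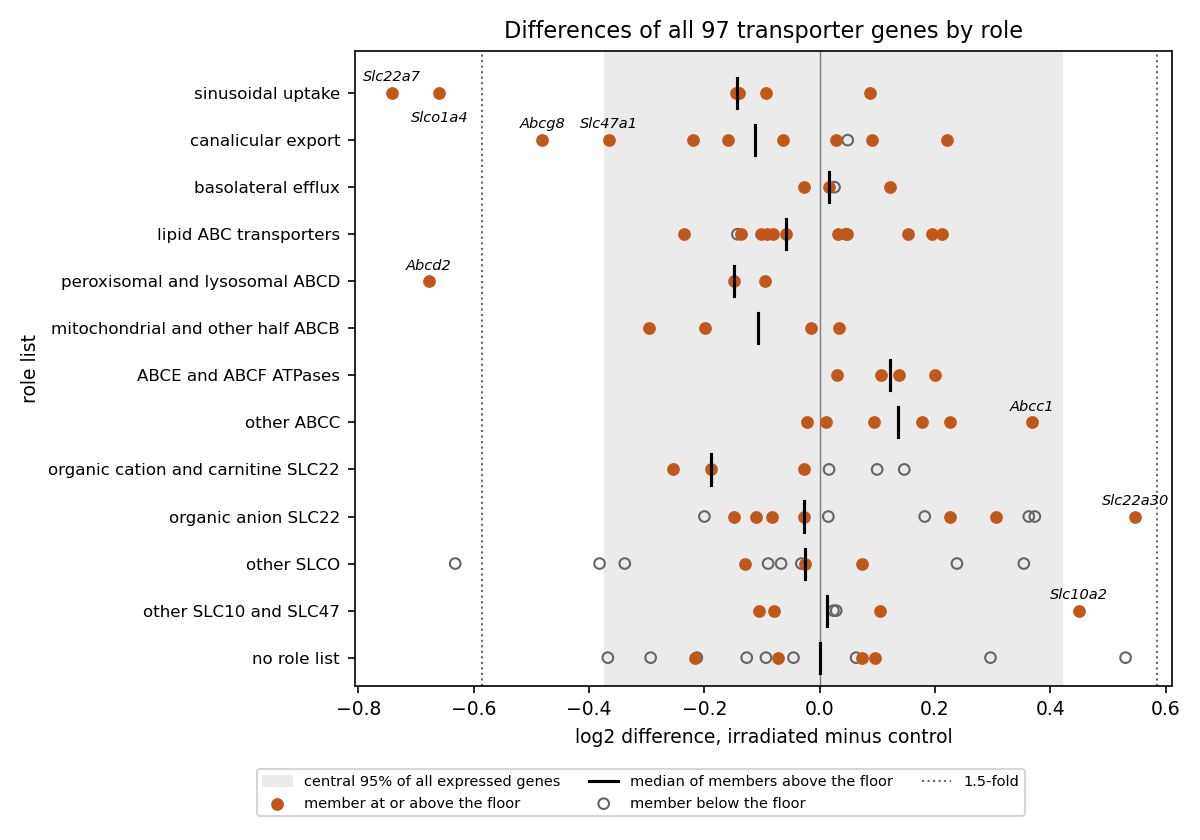
Log2 difference, irradiated minus control (horizontal axis), of all 97 transporter genes by role list (vertical axis); filled points reached the expression floor, open points did not, black bars are medians of the filled points, the grey band is the central 95% of all expressed genes and dotted lines mark 1.5-fold. The filled points outside the band are Slc22a7, Slco1a4, Abcd2 and Abcg8 on the lower side and Slc22a30 and Slc10a2 on the upper side.

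The highest expressed member was Slc22a30, an orphan of the organic anion carrier family. Its control value was 7.77 and its irradiated value 8.31, a difference of 0.55 or 1.46-fold, short of 1.5-fold, and 1.35% of all expressed genes were as high. The remaining organic anion carriers of the Slc22a family ran from -0.15 for Slc22a26 (6.35 and 6.20) upward, and the list had a median of -0.03 over 7 expressed genes. Slc22a28, another orphan of the same cluster, read 10.29 and 10.52 (0.23). The kidney carriers Slc22a6 and Slc22a8 read 6.23 and 6.15, and 6.24 and 6.13, close to the floor. The carriers of organic cations and carnitine were all below 0 among the 3 expressed, where 50.3% of all expressed genes were. They ran from Slc22a4, a carrier of ergothioneine, which read 6.79 and 6.53 (-0.26), to Slc22a5, the main carnitine importer, which read 8.20 and 8.17 (-0.03). Slc22a3 was not analysed here.

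Slc10a2 encodes ASBT, the apical bile acid importer of ileum, kidney and bile duct cells. Its values were 7.39 in the control and 7.84 after irradiation, a difference of 0.45 or 1.37-fold, and 2.17% of all expressed genes were as high. Bile duct markers were higher on the same array. Of the 12 markers 9 had a probe set and 8 were expressed, and all 8 were above 0 with a median of 0.93. Summed on the linear scale, they read 9.67 on the control and 11.13 on the irradiated array as log2. The largest differences among the 8 were those of Muc1 (2.62) and Cd24a (2.50), which weigh most in the sum. The smallest were those of Krt7 (0.29) and Sox9 (0.19). Krt19 read 6.18 and 7.37, and Epcam 6.44 and 7.19, while Cftr was below the floor on both arrays. The part of bile duct cells in the Slc10a2 value was not tested. Its relatives Slc10a4, Slc10a5 and Slc10a7 lay between -0.11 and 0.11, and Slc10a3, whose probe set also carries the symbol Gm44504, read 7.58 and 7.40 there. Slc10a4, a vesicular orphan of neurons, was the lowest of its list, reading 6.29 and 6.18.

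The other Slco genes included 3 that were expressed. Slco2a1, the prostaglandin transporter, a gene of endothelial cells, read 11.37 and 11.34 (-0.03), where 10 endothelial markers had a median of -0.04. Slco4a1, a thyroid hormone carrier, was the lowest of the 3 and read 6.35 and 6.22 (-0.13). Slco3a1 was the highest and read 6.87 and 6.94 (0.07). A further 4 expressed genes had no role list, and they ran from -0.22 for Slc22a18, an imprinted orphan carrier gene, which read 10.96 and 10.75, to 0.10 for the orphan Slc22a23, which read 10.48 and 10.58.

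The 31 members below the floor on both arrays had values between 2.495 and 6.02. Their differences ran from -0.63 for Slco1a5 to 0.53 for Slc10a4l, with a median of 0.02. Slco1a5 was the only one of them at least 1.5-fold different, and it is not counted above.

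Many transporter genes lie in tandem. In the order of protein-coding genes in RefSeq (GRCm38.p6), 38 members formed 13 runs of direct neighbours, some on 1 side of 0 and others on both. In the run of 8 organic anion genes that ends with Slc22a8 and Slc22a6, differences ran from -0.15 to 0.55, with 5 genes expressed. The 5 neighbours from Abca8b to Abca5 ran from -0.08 to 0.19, all expressed. Abcb1a, Abcb1b and Abcb4 were all above 0, from 0.05 to 0.22. Abcg5 and Abcg8 were both below 0. Slco1a4 and Slco1a1 lay on opposite sides of 0.

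**Figure D4:**
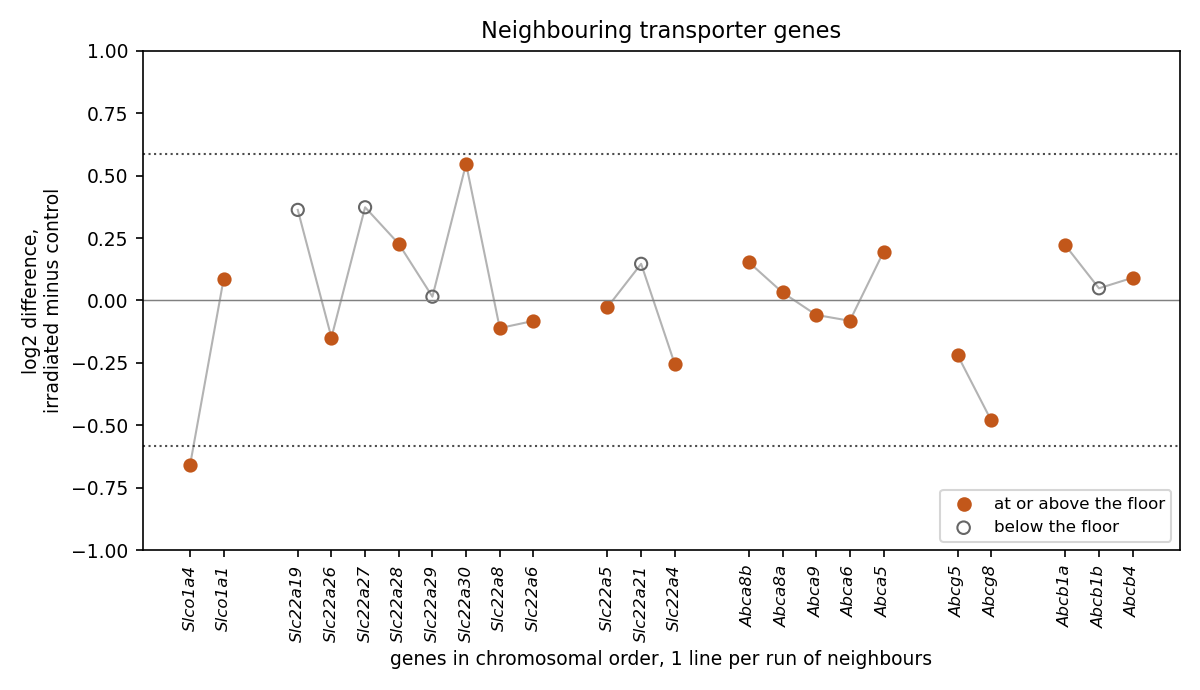
Log2 difference, irradiated minus control (vertical axis), of transporter genes in chromosomal order (horizontal axis), with a line through each of the 6 runs of neighbours that hold at least 2 expressed genes; filled points reached the expression floor, open points did not, and dotted lines mark 1.5-fold. Slco1a4 and Slco1a1 have the widest gap, 0.75, within a pair, and Abcg5 and Abcg8 are both below 0.

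The genes around these transporters were read from lists of bile acid synthesis, regulators and canalicular partners. All 13 bile acid synthesis and conjugation genes were expressed, with a median of -0.07 and none at 1.5-fold. Of these 13, 9 were below 0, where 50.3% of all expressed genes were. Hsd3b7, an enzyme that modifies the sterol ring, was the lowest and read 11.48 and 11.09 (-0.39). Cyp7b1, of the alternative pathway, was the highest and read 11.51 and 11.71 (0.19). Cyp7a1, the rate-limiting enzyme, read 12.79 and 12.56 (-0.23). Of the 12 regulators expressed, 10 were below 0, where 50.3% of all expressed genes were, and the median was -0.07. At least 1.5-fold lower was 1 of the 12, where 0.65% of all expressed genes were. That was Nr0b2, which encodes SHP, a repressor that FXR is known to induce, and it read 11.07 and 9.91, a difference of -1.16. Nr1h4, the FXR gene itself, read 10.54 on both arrays (-0.00), and Nr1i2, the PXR gene, 10.84 and 10.85 (0.01). Nr1i3, the CAR gene, read 10.98 and 10.72 (-0.26). Fgfr4, the hepatic receptor for the gut hormone FGF15, was the highest regulator, at 9.15 and 9.22 (0.07). Nr0b2 and Abcb11, both known FXR targets, differed by -1.16 and -0.16, and 16.5% of all expressed genes were as low as Abcb11. These 2 genes do not stand for all FXR targets, and FXR activity was not tested.

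Partners of the canalicular membrane, such as its flippase, its water channel and the proteins that anchor or sort transporters, had a median of 0.02 over 13 expressed genes. Aqp8, a water channel of hepatocytes, was the lowest and read 9.57 and 8.47 (-1.10). It was the only partner at least 1.5-fold different, where 1.14% of all expressed genes were as much higher and 0.65% as much lower. Ezr, a linker of membrane proteins to actin that is abundant in bile duct cells, was the highest and read 7.42 and 7.89 (0.47). Bile duct markers were also higher on the irradiated array, as given above, by 0.19 to 2.62 among those expressed. Their part in the Ezr value was not tested.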

How the data were processed

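Liver RNA of 1 control and 1 irradiated sample was measured on Affymetrix whole-transcript arrays from 300 ng of total RNA, per the labels' protocols. The deposited table holds 41345 probe sets with 1 log2 value each per array, which the authors made with RMA in Affymetrix Expression Console 1.3.1, per the submitters' processing notes. The file does not name the log base, which was read from the range of the values (1.46 to 13.9), so every fold rests on it. RMA would hide a difference in total RNA per cell. A genome build for the array was not given in the sources used here.

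Symbols were those of the platform annotation held by GEO, possibly outdated, in which 23521 probe sets had 1 symbol, 1814 several and 16010 none. Only those with 1 symbol were used, and a gene with several was represented by the one of highest mean over both arrays, which left 22180 genes. All 97 transporter symbols matched RefSeq by Entrez identifier. The size threshold was 1.5-fold, and no p-value was computed. Values within 0.5 log2 units set the genes of like level.

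Named were all genes of the uptake, canalicular and basolateral lists, other expressed members at least 1.5-fold different, the highest and lowest of each further list, and Cyp7a1, Nr0b2, Nr1h4, Nr1i2 and Nr1i3. A few genes of these lists are not reported here. Other names were chosen after their values were seen. The transporters, lists and motifs were chosen with earlier results of these arrays known. The steps that make gene differences were checked on simulated arrays, with known shifts planted in genes other than the transporters. The member counts, the list medians and the noise of the real arrays were outside that check. Alternatives changed the floor, scaling (including a loess trend of span 0.3), probe set choice, size, list make-up and an offset of 32 on the linear scale. Python 3.11.15 and pandas 2.3.3 were used. Marker lists of macrophages, acinar pancreas, enterocytes, renal tubule, lymphocytes and erythroid cells had medians of 0.12, -0.02, 0.06, 0.10, -0.08 and 0.09 over 10, 3, 6, 4, 5 and 3 expressed genes. These medians hide 1 marker at least 2-fold higher in each of 2 lists. Ctrb1 of the acinar list read 6.78 and 9.43, with the 2 other expressed acinar markers below 0. Lgals4 of the enterocyte list read 7.77 and 8.83, with 4 expressed markers of that list above 0 and 2 below.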

Additional observations from a re-analysis of the deposited data

How the results depend on the processing

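No paired analysis was possible because the control and the irradiated group had 1 array each, and for the same reason no replicate could be left out. Slc22a7, Slco1a4 and Abcd2 stayed at least 1.5-fold lower under all 8 alternatives that change the values, the floor or the probe sets. Only quantile normalization, the loess trend and the offset changed the values of these genes, and the others repeated the reported ones. Slc22a7 lay between -0.74 and -0.67, Slco1a4 between -0.66 and -0.63 and Abcd2 between -0.68 and -0.64. No member was 1.5-fold higher in any of the 8. With no floor, 4 members were 1.5-fold lower. At 2-fold, 0 were lower, and at 0.32 log2 units 5 were lower and 3 higher, as the threshold itself sets. The gap between uptake and canalicular export changed sign to 0.016 with the floor at the 75th percentile, which leaves out Abcb1a, and by means it was -0.16, where the uptake mean was -0.28. With no floor, which adds Abcb1b, and likewise without the lipid exporters Abcb4, Abcg5 and Abcg8, the canalicular median was -0.065 in place of -0.11 and the gap -0.079 in place of -0.03. With the mean of all probe sets of a gene, the gap was -0.0047. Restricting the count to genes with a role list, an alternative chosen after seeing the data, left 3 lower and 0 higher. Of 504 values of single members under the alternatives, all 504 lay within 0.1 of the reported one. Most of them only repeat it, since outside the normalization, loess and offset settings only Abcg4 and Slco2b1 changed. The count is therefore no measure of robustness. The alternatives are reruns of the same 2 arrays, so they say nothing of the spread between animals. With 1 array per group, differences of any size cannot be told from array noise or from variation between animals or their handling.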
